A study of Rattus norvegicus with 10 samples.

Results

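The enzymes of the citric acid cycle were followed in the livers of 10 rats on a high-fat diet, through the transcripts of Cs, Idh2, Idh3a, Ogdh, Suclg1, Suclg2, Mdh1 and Mdh2. Members were all probe sets whose platform annotation gave exactly 1 gene symbol and that symbol was on a list of 9 cycle genes. This gave 12 probe sets of 8 genes, out of 31042 probe sets other than controls, and those with a single symbol stood for 14217 genes. The remaining listed gene, Fh, was not analysed here.

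The animals were Wistar/ST rats, and both groups ate the high-fat diet, so no group on an ordinary diet enters the comparison. The 5 control rats received 0 mg and the 5 mulberry rats 500 mg of dried mulberry leaf powder per kg body weight per day, suspended in 0.5% carboxymethylcellulose and given into the stomach after an overnight fast. Livers were collected after 7 weeks and hybridised to 1 Affymetrix rat array per animal. The age and sex of the rats were not given in the labels. Median signal intensity per array was between 97.5 and 118. All 7 hepatocyte markers with a probe set (such as Alb and Ttr) were above the filter used here, with a summed intensity of 180064 to 218828 in control and 178353 to 221142 in mulberry rats. The macrophage markers, 6 of 6 above the filter, summed to 9691 to 14283 in control and 7725 to 12511 in mulberry rats. Gene by gene, mulberry means were above control means for 4 of these 6 and below for 2, with a median difference of 0.10 on the log2 scale. With limma, 2 of the 6 had an unadjusted p under 0.05, beside 185 of all 10328 tested genes. No tested probe set had an adjusted p under 0.05. The part of macrophages in the values below was not tested. In whole liver, fewer cells of a type and less RNA per cell cannot be told apart.

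The citric acid cycle oxidises the acetyl groups that come from pyruvate, fatty acids and amino acids in the mitochondrial matrix, and passes the electrons to the respiratory chain. In liver it also supplies citrate for fatty acid synthesis and malate and oxaloacetate for gluconeogenesis, so that its enzymes stand where burning and storing of dietary fat meet. Citrate synthase condenses acetyl-CoA with oxaloacetate, isocitrate and 2-oxoglutarate dehydrogenases release carbon dioxide, succinyl-CoA synthetase makes a nucleoside triphosphate, and malate dehydrogenase regenerates oxaloacetate.

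No member passed the test between mulberry and control rats. Of the 12 member probe sets, 11 were above the filter on low intensity and were tested together with all other probe sets, 18625 in all. With limma, 0 of the 11 had an adjusted p under 0.05, against 0 of 18625 (0%) over all probe sets, and 0 of the 11 had an unadjusted p under 0.05, against 325 of 18625 (1.74%). The 5 control and 5 mulberry intensities overlapped for each of the 11, where groups did not overlap for 0.344% of all tested probe sets. The adjusted p was 0.9999 for each member probe set, and unadjusted p ranged from 0.0516 to 0.775. Below, a difference is the mulberry mean less the control mean of log2(intensity + 16), followed by its standard error (SE), fold intervals are its 95% confidence intervals, and intensities are linear. Intensities of different probe sets are not compared with each other as RNA amounts.

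**Figure D1:**
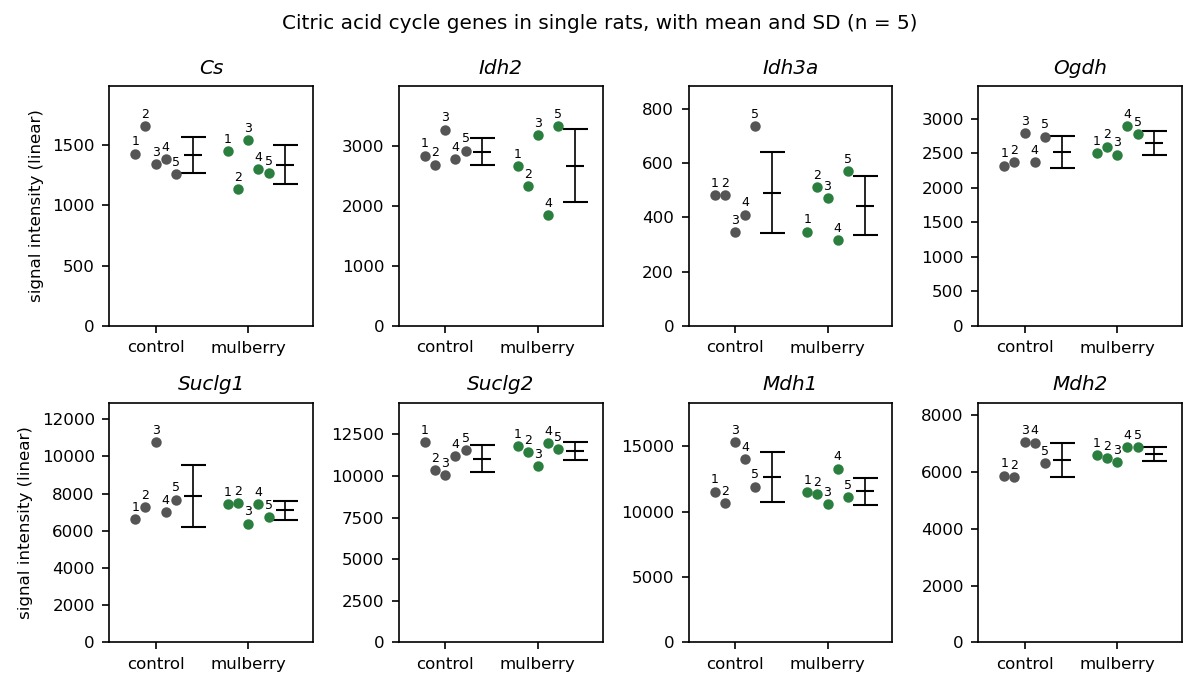
Linear signal intensity of the 8 citric acid cycle genes in each rat (points, numbered by rat; y axis from 0), control in grey and mulberry in green, with mean and SD of 5 rats beside them. The groups overlap in every panel; control rat 3 is the highest control for Suclg1, at 10744, and mulberry rat 4 is the lowest for Idh2, at 1848.

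The sequences upstream of 4 of the genes are printed here because their levels varied together among rats, as described further on. That grouping rests on the brightest probe set of each gene and was chosen after the values were seen. The sequences were read from RefSeq (assembly GRCr8) and stop at the most upstream annotated transcript start, with the end nearest the gene last. For Ogdh the RefSeq table uses a start 82 bases further downstream, so the printed stretch is the first 168 bases of the window searched. Capitals mark the motifs searched for.
Mdh1, chr14:99847228-99847477, minus strand: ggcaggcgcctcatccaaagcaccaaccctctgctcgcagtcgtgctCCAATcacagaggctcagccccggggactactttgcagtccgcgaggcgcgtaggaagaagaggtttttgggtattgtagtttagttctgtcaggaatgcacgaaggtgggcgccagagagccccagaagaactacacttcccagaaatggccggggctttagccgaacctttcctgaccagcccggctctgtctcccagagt
Mdh2, chr12:26543842-26544091, minus strand: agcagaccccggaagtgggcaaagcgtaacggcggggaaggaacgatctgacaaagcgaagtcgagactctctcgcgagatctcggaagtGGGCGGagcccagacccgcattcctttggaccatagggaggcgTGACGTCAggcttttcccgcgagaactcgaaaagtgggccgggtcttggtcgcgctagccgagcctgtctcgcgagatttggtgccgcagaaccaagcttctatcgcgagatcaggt
Suclg1, chr4:106866079-106866328, plus strand: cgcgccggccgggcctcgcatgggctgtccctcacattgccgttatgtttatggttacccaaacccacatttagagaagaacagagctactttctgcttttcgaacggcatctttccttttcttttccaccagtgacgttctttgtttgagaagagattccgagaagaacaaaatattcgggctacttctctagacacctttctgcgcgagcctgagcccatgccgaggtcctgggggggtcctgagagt
Ogdh, chr14:85363781-85363948, plus strand: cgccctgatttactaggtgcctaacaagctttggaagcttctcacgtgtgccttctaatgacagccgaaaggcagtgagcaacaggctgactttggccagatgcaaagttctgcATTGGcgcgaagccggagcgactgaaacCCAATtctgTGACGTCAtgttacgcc

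The motifs were CCAAT (the CCAAT box, bound by NF-Y), GGGCGG (the GC box, bound by Sp1), TGACGTCA (the cyclic AMP response element, bound by CREB), GCGCATGCG (the NRF1 site) and TCAAGGTCA (the site of estrogen-related receptors), on both strands and in the 250 bases before the start given in the RefSeq table, for 7 of the 8 genes. Matches of different motifs did not overlap in these windows. A cyclic AMP response element was found before Mdh2, 117 bases from the start, and before Ogdh, 99 bases from that start and 17 from the most upstream one, so in 2 of 7 windows, where 1.59% of the 33469 windows of that length over all genes in the RefSeq table hold one. A GC box was found in 5 of 7 windows (Cs, Idh2, Mdh2, Ogdh and Suclg2) against 30.5% of all; that of Ogdh, 21 bases before the table's start, lies beyond the stretch printed. The 7 windows were 51.6% to 68.8% G and C, against a median of 51.2% over all windows, and the part of base composition in these shares was not tested. There was a CCAAT box in 4 of 7 windows (Cs, Idh2, Mdh1 and Ogdh) against 34.0%. The NRF1 and estrogen-related receptor letters were in 0 of 7, against 1.35% and 0.388% of all windows. None of these motifs was common to the 4 genes whose sequences are printed: Suclg1 held no match and Mdh1 only a CCAAT box. Matches are letters in a window and not shown sites.

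Citrate synthase (Cs), the entry enzyme of the cycle, had lower mean intensity with mulberry on all 3 of its tested probe sets. On the probe set 1384201_at, control rats 1 to 5 measured 515, 521, 437, 552 and 431, and mulberry rats 1 to 5 measured 439.9, 351, 469, 398 and 384. All 5 mulberry rats lay below the control mean of 491 ± 54.2 (SD, n = 5) and 3 lay below every control rat. The difference was -0.26 ± 0.12 (SE), a fold of 0.836 with an interval from 0.698 to 1.001 (limma, unadjusted p = 0.0516, adjusted p = 0.9999). On 1369967_at, control rats measured 859.7, 840.3, 1075, 959.5 and 926, and mulberry rats 804, 749, 741, 908 and 865. Here too 3 mulberry rats were below all control rats and all 5 below the control mean, with a difference of -0.19 ± 0.11 (unadjusted p = 0.0958). The brightest probe set, 1375295_at, which stands for the gene in the summaries below, gave 1429, 1657, 1344, 1379.8 and 1259 in control and 1447, 1132, 1539.7, 1297 and 1265 in mulberry rats. There only 3 of 5 mulberry rats lay below the control mean, and the difference was -0.082 ± 0.11 (fold interval 0.798 to 1.12), or -0.024 without control rat 2, -0.025 without mulberry rat 2 and -0.13 without mulberry rat 3. A further Cs probe set, 1396453_at, ranged from 9.27 to 50.3 in control and from 13.9 to 50.8 in mulberry rats, under the filter level of 61.1, and was not tested.

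The Cs probe sets shared a direction but not an order of rats. After the group means were removed, 1375295_at and 1384201_at followed each other over the 10 rats (Pearson r = 0.82), while 1369967_at ran against both (r = -0.38 and r = -0.36). Over the 2805 genes with 2 or more tested probe sets, the median r of the brightest pair was 0.39, and 22.7% of pairs were below 0. The points share arrays and their scaling, and these values are descriptions. Among the 543 genes with exactly 3 tested probe sets, all 3 were lower with mulberry for 95 (17.5%), so the shared direction alone does not set Cs apart.

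**Figure D2:**
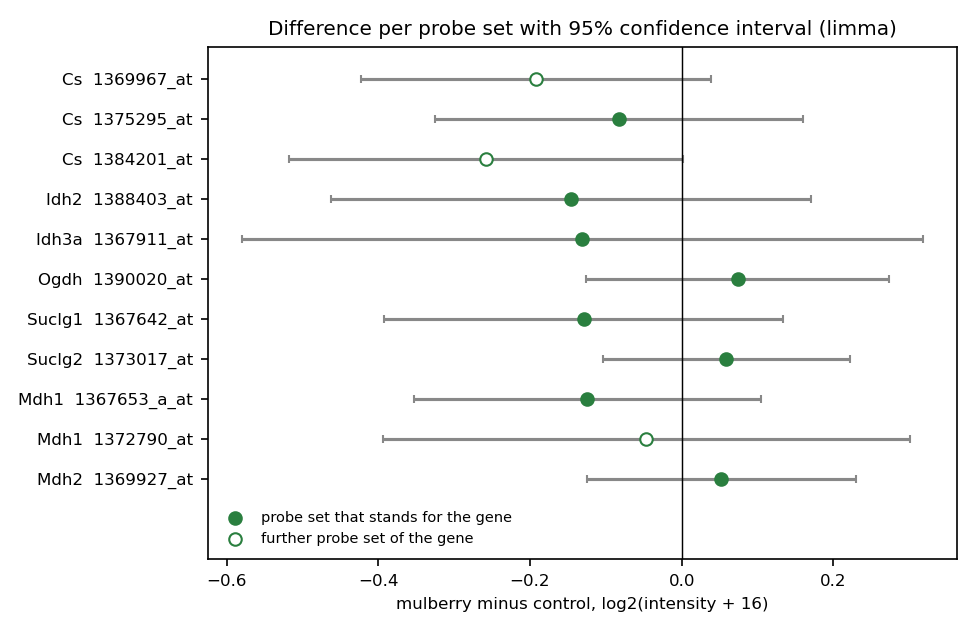
Difference between mulberry and control rats for the 11 tested citric acid cycle probe sets, on the log2(intensity + 16) scale, with the 95% confidence interval of limma (n = 5 per group). Each interval includes 0, and 8 of 11 points lie below 0; Idh3a has the widest interval.

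Idh2 and Idh3a, the isocitrate dehydrogenase genes among the members, both had lower means with mulberry. By the brightest probe set of each member, they also had the largest spread among rats. Idh2 encodes the mitochondrial NADP-linked enzyme, which supplies NADPH in the matrix. Its probe set measured 2836, 2689, 3272, 2776 and 2924 in control rats 1 to 5 and 2667, 2331, 3178, 1848 and 3333 in mulberry rats 1 to 5. The lowest and the highest of all 10 values were both in mulberry rats, and the coefficient of variation was 7.76% in control and 22.8% in mulberry rats. The difference was -0.15 ± 0.15 (unadjusted p = 0.338), -0.022 without mulberry rat 4 and -0.23 without mulberry rat 5. Idh3a encodes the catalytic subunit of the NAD-linked enzyme, a main control point of the cycle. It measured 481, 482, 345, 409 and 736 in control and 347, 511, 472, 316 and 570.2 in mulberry rats. Control rat 5 was the highest and mulberry rat 4 the lowest, and the difference of -0.13 ± 0.21 had a fold interval of 0.669 to 1.25, the widest among the members. Its sign turned without control rat 5, to 0.023, and it was -0.24 without control rat 3.

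Ogdh, the first subunit of the 2-oxoglutarate dehydrogenase complex, had a slightly higher mean with mulberry. Control rats measured 2318, 2374, 2792, 2369.5 and 2739, and mulberry rats 2499.6, 2595, 2480.0, 2894 and 2774. Control rats 3 and 5 stood with the mulberry rats, and the other 3 control rats lay below all of them. The difference was 0.074 ± 0.092 (unadjusted p = 0.437), with a fold interval from 0.917 to 1.21. It ranged from 0.042 without mulberry rat 4 to 0.11 without control rat 3.

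Both subunits of the GTP-forming succinyl-CoA synthetase were bright, and their differences had opposite signs. Suclg1 encodes the alpha subunit, shared by the GTP- and the ATP-forming enzyme. It measured 6639, 7256, 10744, 7007 and 7665 in control and 7442, 7499, 6374, 7427 and 6714 in mulberry rats. Control rat 3 stood far above the rest, and the difference of -0.13 ± 0.12 (unadjusted p = 0.308) was -0.011 without it. Suclg2 encodes the beta subunit that makes the enzyme specific for GTP. It measured 12018, 10349.6, 10053, 11202 and 11558 in control and 11811, 11441, 10582, 11957 and 11624 in mulberry rats. Control rat 3, the highest for Suclg1, was the lowest for Suclg2. The difference of 0.059 ± 0.075 had a fold interval of 0.931 to 1.17, the narrowest among the members, and ranged from 0.026 without control rat 3 to 0.091 without control rat 1.

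Malate dehydrogenase is made in a cytosolic form (Mdh1) and a mitochondrial form (Mdh2), which both take part in the malate-aspartate shuttle. Mdh1 measured 11550.2, 10647, 15305, 14048 and 11926 in control and 11510.4, 11367, 10567, 13313 and 11133 in mulberry rats on its brighter probe set, with control rats 3 and 4 the highest. The difference was -0.12 ± 0.11 (unadjusted p = 0.262), or -0.054 without control rat 3. A dimmer Mdh1 probe set, 1372790_at, averaged 1518 ± 223 among controls and 1490.1 ± 381 among mulberry rats (SD, n = 5 each), with a difference of -0.047 ± 0.16 whose sign turned when control rat 4, mulberry rat 1 or mulberry rat 5 was left out. Mdh2 measured 5859.8, 5816, 7029.9, 7021 and 6302 in control and 6582, 6468, 6347, 6863 and 6855 in mulberry rats. All 5 mulberry rats lay inside the control range, and the difference was 0.052 ± 0.082 with a fold interval of 0.917 to 1.17. It ranged from 0.019 without control rat 2 to 0.087 without control rat 3.

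Within single arrays, the log2 intensity of Mdh1 on its brighter probe set minus that of Mdh2 was lower in mulberry rats. It was 0.98, 0.87, 1.12, 0.999 and 0.92 in control rats 1 to 5 and 0.80, 0.81, 0.73, 0.95 and 0.70 in mulberry rats 1 to 5. The means were 0.98 ± 0.095 and 0.80 ± 0.098 (SD, n = 5 each), a difference of -0.18, and 4 of 5 mulberry rats lay below every control rat, with mulberry rat 4 among the controls. No test was made of this quantity, and no share over other gene pairs is given beside the count. Neither Mdh1 nor Mdh2 passed the test on its own, and the quantity does not say which transcript, if either, differed. The difference lay between -0.21 and -0.14 when any 1 rat was left out. With the dimmer Mdh1 probe set in place of the brighter one, the means were -2.07 ± 0.13 and -2.17 ± 0.33, a difference of -0.099, and 2 of 5 mulberry rats lay below every control rat. For Idh2 minus Idh3a the same quantity was 2.57 ± 0.44 in control and 2.55 ± 0.27 in mulberry rats. For Suclg2 minus Suclg1 it was 0.51 ± 0.36 and 0.70 ± 0.069, a difference of 0.19 that was 0.038 without control rat 3, whose value of -0.096 was the lowest of the 10.

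Of the 8 genes, each by its brightest probe set, 5 had a lower and 3 a higher mean with mulberry, with a median difference of -0.10. Over all 10328 genes, 48.7% were lower in mulberry rats, and the median difference was 0.0035. The median of the 8 was -0.032 without control rat 3 and -0.022 without mulberry rat 4. The median size of the difference, whatever its direction, was 0.10 for the 8 genes and 0.083 over all genes.

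Some members were among the steadier transcripts between animals of a group, and others were not. The within-group SD was 0.091 on the log2 scale for Suclg2, 0.10 for Mdh2 and 0.11 for Ogdh, which is lower than for all but 8.27%, 11.9% and 10.3% of the tested probe sets in the same level class, of 10 classes of equal size. For Cs it was 0.13, 0.16 and 0.16 on the 3 probe sets. Idh3a was the least steady, at 0.37, above 83.7% of the probe sets at its level. The dimmer Mdh1 probe set followed at 0.28 (above 75.9% at its level) and Idh2 at 0.26 (above 68.5%). Suclg1, at 0.21, was above 64.3% and the brighter Mdh1 probe set, at 0.18, above 50.9%. The median over all tested probe sets was 0.26, and the SD falls with level. The SD was smaller in mulberry than in control rats for 7 of 11 member probe sets, against 51.5% of all tested probe sets. Without control rat 3 these were 4 of 11 and 43.0%.

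**Figure D3:**
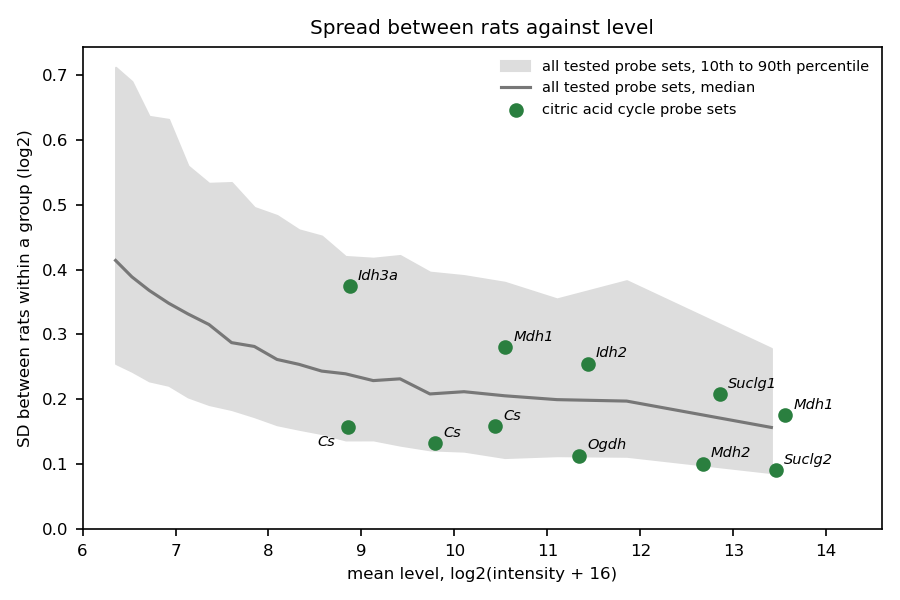
Within-group SD between rats (log2) against mean level for the 11 tested citric acid cycle probe sets (green), with the median (line) and the 10th to 90th percentile (band) of all 18625 tested probe sets. Suclg2, Mdh2 and Ogdh lie near the lower edge of the band and Idh3a near the upper edge.

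Each by its brightest probe set, the 8 transcripts did not vary as a block from rat to rat, but 4 of them varied with each other. Over the 28 pairs, the mean Pearson r of the deviations from the group means (10 rats) was -0.022, against 0.0044 over all pairs of tested genes, and 17 of 28 pairs were below 0. The 6 pairs above 0.5 were the 6 pairs that Mdh1, Mdh2, Suclg1 and Ogdh form with each other, from 0.54 for Mdh2 with Ogdh and with Suclg1 to 0.89 for Mdh1 with Mdh2. The grouping was chosen after the values were seen, and the further probe sets of Cs and Mdh1 were not used in it. The shares of all gene pairs past these cuts are not given here, so the counts do not set these genes apart. Cs, by its brightest probe set 1375295_at, ran against Ogdh (r = -0.56), and Idh3a ran against Mdh1 (r = -0.65). The Cs probe set 1369967_at ran against 1375295_at (r = -0.38), so the sign for Cs may differ with the probe set. Like Ogdh, 1369967_at was highest in rat 3 among controls and in rat 4 among mulberry rats. Its correlations with other members are not given here.

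All 4 were above their mean in control rat 3, by 0.34 for Mdh1, 0.11 for Mdh2, 0.54 for Suclg1 and 0.12 for Ogdh. In that array the brightest 5% of tested probe sets were above their mean over rats by 0.12, the largest such value of the 10 arrays. All tested probe sets together were at -0.067. Mdh1, Mdh2 and Suclg1 belong to the brightest 5% and Ogdh does not. Suclg2 belongs to them too but was at -0.16 in that array. The part of this shift in the correlations was not tested. Quantile normalization makes the distribution of values the same on every array. After it r was 0.74 for Mdh1 with Mdh2, 0.60 for Mdh1 with Ogdh and 0.60 for Suclg1 with Ogdh. It was 0.51 for Mdh2 with Ogdh, 0.41 for Mdh1 with Suclg1 and 0.093 for Mdh2 with Suclg1. Cs with Ogdh, by the same Cs probe set, was then at -0.38 and Idh3a with Mdh1 at -0.46. Outside these pairs, r went from -0.42 to -0.71 for Suclg1 with Suclg2 and from 0.19 to 0.52 for Idh3a with Suclg2.

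**Figure D4:**
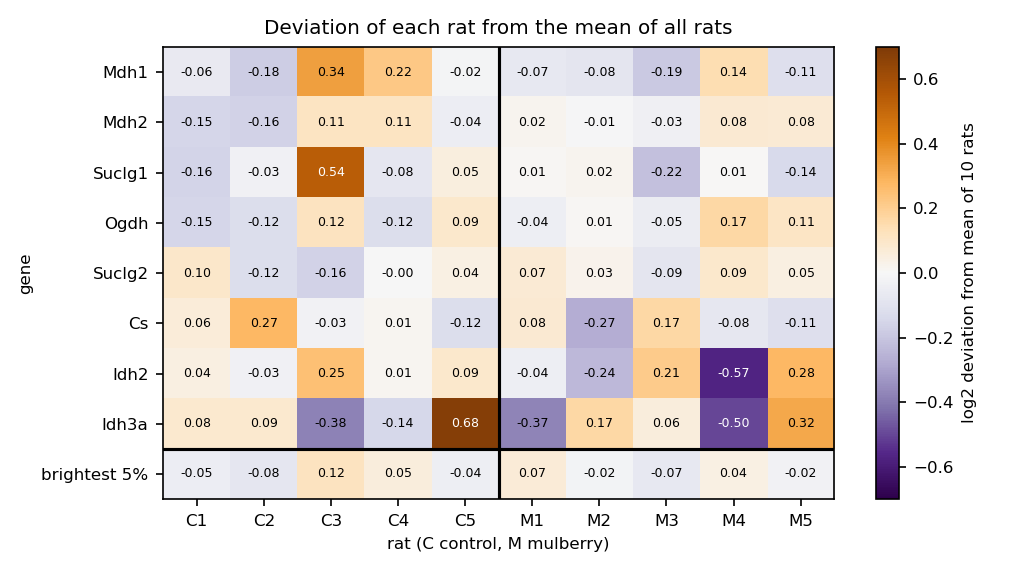
Log2 deviation of each rat from the mean of all 10 rats for the 8 citric acid cycle genes, with the mean deviation of the brightest 5% of tested probe sets in the lowest row (C control, M mulberry). Mdh1, Mdh2, Suclg1 and Ogdh are all above their means in control rat 3, and Idh2 and Idh3a are both lowest in mulberry rat 4, at -0.57 and -0.50.

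The genes whose deviations were most like the mean of the 8 members over the 10 rats were Cybrd1 (Pearson r = 0.93), Coprs (0.92), Nol9 (0.91), Pom121 (0.90) and Rpa2 (0.90). These are the highest of 10328 genes over only 10 rats and are given as a description. The mean is of unscaled deviations, so the members of largest spread, Idh3a and Idh2, weigh most in it.

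The remaining subunits of the cycle had means close to those of the controls. Of 9 genes tested, 5 were lower and 4 higher, with a median of -0.015, and 0 had an unadjusted p under 0.05. The other subunits of NAD-linked isocitrate dehydrogenase differed by 0.022 ± 0.080 (Idh3b) and -0.16 ± 0.11 (Idh3g). The 2-oxoglutarate dehydrogenase subunits Dlst and Dld, the latter shared with the pyruvate dehydrogenase complex, were at 0.086 ± 0.13 and 0.14 ± 0.12. Sucla2, the ATP-specific counterpart of Suclg2, was at 0.043 ± 0.10. The 4 subunits of succinate dehydrogenase, which is also complex II of the respiratory chain, were at -0.032 ± 0.10 (Sdha), -0.082 ± 0.12 (Sdhb), -0.015 ± 0.11 (Sdhc) and -0.027 ± 0.096 (Sdhd, where a dimmer probe set had the other sign).

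Genes that feed or drain the cycle did not pass the test either. In the pyruvate dehydrogenase list, which holds the complex that makes acetyl-CoA from pyruvate with its kinases and phosphatases, 8 of 10 genes had a lower and 2 a higher mean, with a median of -0.13. That median was -0.068 when each gene was taken as the median of its probe sets, and -0.086 without mulberry rat 4. Pdha1, the catalytic subunit, was at 0.013 ± 0.10, and the inhibiting kinases Pdk2 and Pdk4 were at -0.14 ± 0.12 and -0.26 ± 0.28, and for Pdk2 a second probe set pointed the other way. Of the 11 genes of entry and exit of intermediates, 8 were lower and 3 higher, with a median of -0.043, or -0.015 without control rat 3, -0.078 without mulberry rat 2 and -0.070 after a shift of the arrays to equal medians. In it Pc, which makes oxaloacetate from pyruvate, was at -0.19 ± 0.11, Acly, which splits exported citrate, at -0.10 ± 0.16, the cytosolic Aco1 at -0.020 ± 0.10 and Idh1 at 0.053 ± 0.082. The cytosolic and mitochondrial aspartate aminotransferases of the malate-aspartate shuttle were at 0.11 ± 0.35 (Got1) and -0.043 ± 0.075 (Got2).

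Mitochondrial carriers of cycle intermediates had a lower mean in 5 of 8 cases, with a median of -0.057, or 0.021 without control rat 3. The citrate carrier Slc25a1 was at -0.081 ± 0.14 and the oxoglutarate carrier Slc25a11 at -0.042 ± 0.13. Regulators of mitochondrial gene expression were lower in 4 of 7 cases, with a median of -0.024, a sign that was not stable when single rats were left out (range -0.036 to 0.044). Among them were the coactivator Ppargc1a at 0.043 ± 0.15, its partner Esrra at -0.043 ± 0.17, Nrf1 at 0.12 ± 0.20 and Tfam, which maintains mitochondrial DNA, at -0.043 ± 0.099. Over these 5 lists, 0 genes had an adjusted or an unadjusted p under 0.05 with limma, beside 185 of 10328 genes at an unadjusted p under 0.05.

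**Figure D5:**
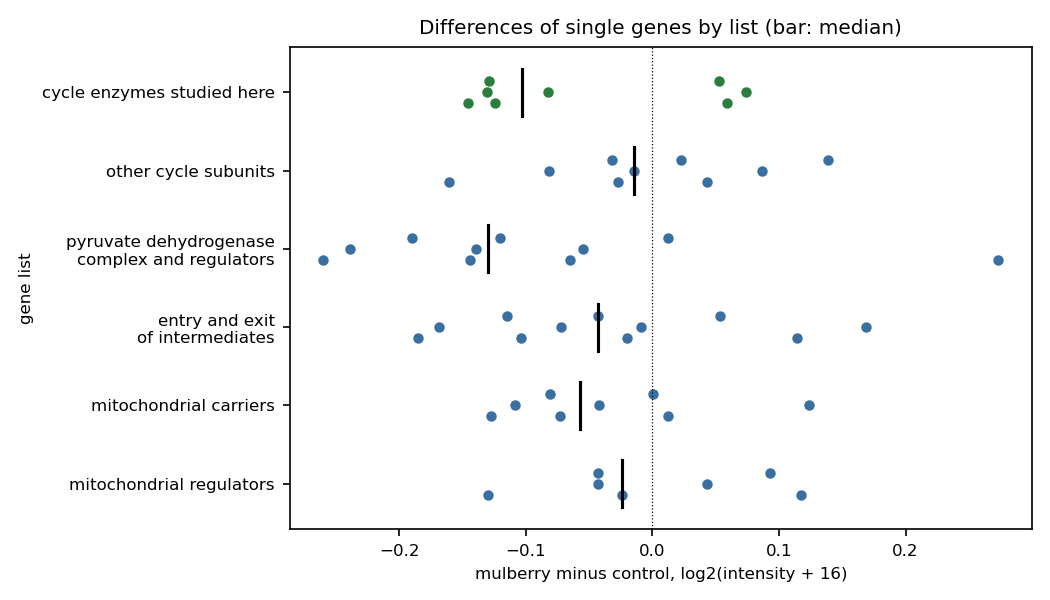
Difference between mulberry and control rats on the log2(intensity + 16) scale for each gene (points) of the 8 cycle enzymes and of 5 neighbouring lists, with the list median as a bar. Medians lie between -0.13 for the pyruvate dehydrogenase list and -0.015 for the other cycle subunits.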

How the data were processed

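Linear signal intensity of every probe set on each array was deposited by the authors in 1 table; the submitters' processing notes name MAS5 and affy with no version or role. The mean intensity after trimming 2% at each end was the same on every array, so values were used as scaled by the authors. From them log2(intensity + 16) was computed, which understates differences of dim probe sets. The 57 control probe sets and those at or under the 40th percentile of mean log2 level (intensity 61.1) were left out. Groups were compared with limma 3.58.1 in R 4.3.3 (lmFit, eBayes with a variance trend, two-sided, Benjamini-Hochberg over 18625 probe sets, threshold 0.05), a procedure tested on simulated data. Correlations, within-array differences and list medians have no test. Where a gene had several tested probe sets, the one of highest mean stood for it. Symbols came from the platform annotation, and all 8 genes matched RefSeq (GRCr8) by Entrez identifier. Tables and plots were made in Python 3.11.15 with pandas 2.3.3 and matplotlib 3.10.9. Named genes were all members, neighbouring genes fixed by role, and the 5 genes with the most similar pattern. Of these, genes without a usable probe set are not reported. Members and lists were chosen with earlier results of these data known. Groups and rat numbers came from the sample titles; the labels describe livers of separate rats, and the number of arrays limits the precision. Alternatives were pseudocounts of 1 and 64, no filter on level or one at the 60th percentile, normalization by quantiles or by a shift to equal medians, array weights, leaving off the variance trend, a replicate block, 1 probe set per gene, the median over a gene's probe sets and leaving out each rat.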

Additional observations from a re-analysis of the deposited data

How the results depend on the processing

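With limma, 0 probe sets passed an adjusted p of 0.05 under each alternative listed and with each rat left out; the smallest adjusted p of a member probe set was 0.9987. Rats left out in turn moved the median difference of the 8 cycle genes, -0.10, to between -0.10 and -0.022, and their median within-group SD, 0.17, to between 0.12 and 0.18, the lowest without control rat 3. Signs turned for Idh3a (range -0.24 to 0.023) and the dimmer Mdh1 probe set (range -0.18 to 0.036) only, among the 11 member probe sets, when single rats were left out, and for none under the other alternatives. The median of the other cycle subunits, -0.015, ranged from -0.028 to 0.012 with single rats left out, and that of the mitochondrial regulators was also above 0, at 0.0096, with no filter on low values. The mean correlation among members, each by its brightest probe set, was -0.033 after quantile normalization and 0.18 after a median shift. The within-array differences were recomputed under a pseudocount of 1, quantile normalization, left-out rats and the dimmer Mdh1 probe set, alternatives chosen after seeing the data; Idh2 minus Idh3a changed sign with quantile normalization, from -0.015 to 0.0036, and ranged from -0.16 to 0.14 with single rats left out. Titles number the rats 1 to 5 in each group, but nothing says that equal numbers pair them: deviations of same-numbered rats correlated between -0.33 and 0.096, and 1 of 5 control rats correlated best with its own number. With the replicate block 0 probe sets passed, and no call among the members changed.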
